A study of Flechtneria rotunda with 10 samples.

Results

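Rehydrated drops of the desert green alga Flechtneria rotunda were compared with drops at late desiccation, the pair of wet stages that lie on either side of full dryness. The comparison contrasts 4 of the 10 RNA-seq libraries of the series, 2 for each of these stages, in a model fitted to all 10. It covers 10467 of the 17148 assembled genes in the deposited count table, those that passed a filter on low counts. All libraries came from strain SEV3VF49, a laboratory culture of 1 strain kept for 6 weeks in 150 mL of medium. Drops of 40 µL were spread on cover glass and left to dry. The late libraries were taken at 7.5 h, when 60% of the drop's volume had gone. The rehydrated libraries were taken 1 h after water had been given back. The stages used for reference were hydrated drops (at the start), early desiccation (2.5 h, a volume loss of 25%) and dry drops (about 24 h, of which 11 h after flattening), again with 2 libraries each. No genotype or chemical treatment differs between the groups. Separate cultures for the 2 libraries of a stage are not stated in the labels, and the p-values therefore reflect only how far these libraries differ, a spread that may be technical. A drop that holds fewer living cells and one that holds less RNA per cell cannot be told apart in these data.

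Green algae from desert crusts lose nearly all cell water and resume metabolism when wetted. In plants and algae that survive drying, known responses include protective proteins and sugars made while water is lost, a halt of photosynthesis and growth in the dry state, and repair and renewed translation once water returns. Transcripts can also be kept in dry cells and used on rewetting, so a rewetted cell may hold RNA made before, during or after dryness. Late desiccation and early rehydration both contain liquid water, and setting them against each other asks whether RNA differs between partly dried cells on the way down and rewetted cells on the way up. The gene identifiers are those of a transcriptome assembly and the files pair them with no gene names. No pathway or marker list could therefore be counted, no function is given for any gene, and the algal identity of the cells was not checked against marker genes.

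The libraries differed in depth and in breadth. Total counts were 3561533 and 5409197 in the late libraries, and 2736467 and 1696655 in the rehydrated ones. In the table, 16728 and 16972 genes had at least 1 count in the late libraries against 13262 and 12353 in the rehydrated libraries. With each library thinned to the smallest total (1696650 after rounding), 16034 and 16405 genes were still detected in the late and 12333 and 12353 in the rehydrated libraries. The difference in breadth was thus present at equal depth. At that depth 12772 and 12996 genes were detected in hydrated, 13130 and 13482 in early, and 10456 and 11136 in dry libraries. The late libraries thus had more genes than those of any other stage. The most abundant assembled gene, the same one in every library, took 29.4% of rehydrated replicate 1 and 13.5% of rehydrated replicate 2, beside 21.6% and 20.2% at late desiccation. The median difference between the 2 libraries of a stage, without sign, was 0.53 on the log2 CPM scale in rehydrated and 0.24 in late desiccation. CPM are counts relative to library size after scaling by TMM, a trimmed mean of ratios between libraries. By its name the deposited table lists only genes taken as differentially expressed, and how they were picked is not stated, so percentages of tested genes do not extend to the whole alga.

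RNA levels of many genes differed between partly dried and rewetted drops. In rehydrated drops 2147 genes were higher and 1678 lower than at late desiccation, 36.5% of those tested, by edgeR's quasi-likelihood test with Benjamini-Hochberg adjusted p below 0.05. The higher genes were 20.5% and the lower genes 16.0% of those tested. On the log2 scale the median fold change was 1.71 for the higher genes (quartiles 1.21 to 2.51, median standard error 0.31) and -1.98 for the lower genes (quartiles -2.87 to -1.41, median standard error 0.47). Over all tested genes it was -0.11. Fitted differences of at least 4-fold were seen in 870 higher and 831 lower genes, and of at least 8-fold in 301 and 370. The libraries of the stages did not overlap in 2136 of the 2147 higher and in all 1678 lower genes. Of all tested genes, 71.1% did not overlap, with rehydrated above in 32.6% and below in 38.5%. Of the calls, 1824 (17.4% of tested genes) were also made with each of the 4 libraries left out in turn. Of these, 1234 were higher (11.8% of tested genes) and 590 lower (5.64%). They made up 57.5% of the higher and 35.2% of the lower genes.

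The direction of the balance rests on the setting, among them how the libraries are scaled. With libraries scaled by their totals alone, the typical tested gene had a log2 fold change of -0.82 (the median), and 1036 genes were higher and 3411 lower. All 1678 lower genes and 1036 of the 2147 higher genes kept their call on that scale. Higher genes thus made up 56.1% of calls on the TMM scale and 23.3% on library totals. Without late desiccation replicate 2, the deepest library, 1369 genes were higher and 753 lower. Without late desiccation replicate 1, 998 were lower. A linear model (limma) on the deposited TMM-scaled signal, without a filter, gave 1853 higher and 3892 lower genes at a pseudocount of 1. At a pseudocount of 0.1 it gave 1647 and 3239. Restricted to a mean signal of at least 1, at a pseudocount of 1, it gave 1728 and 1413. The remaining settings are shown in the plot of calls by setting.

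**Figure D1:**
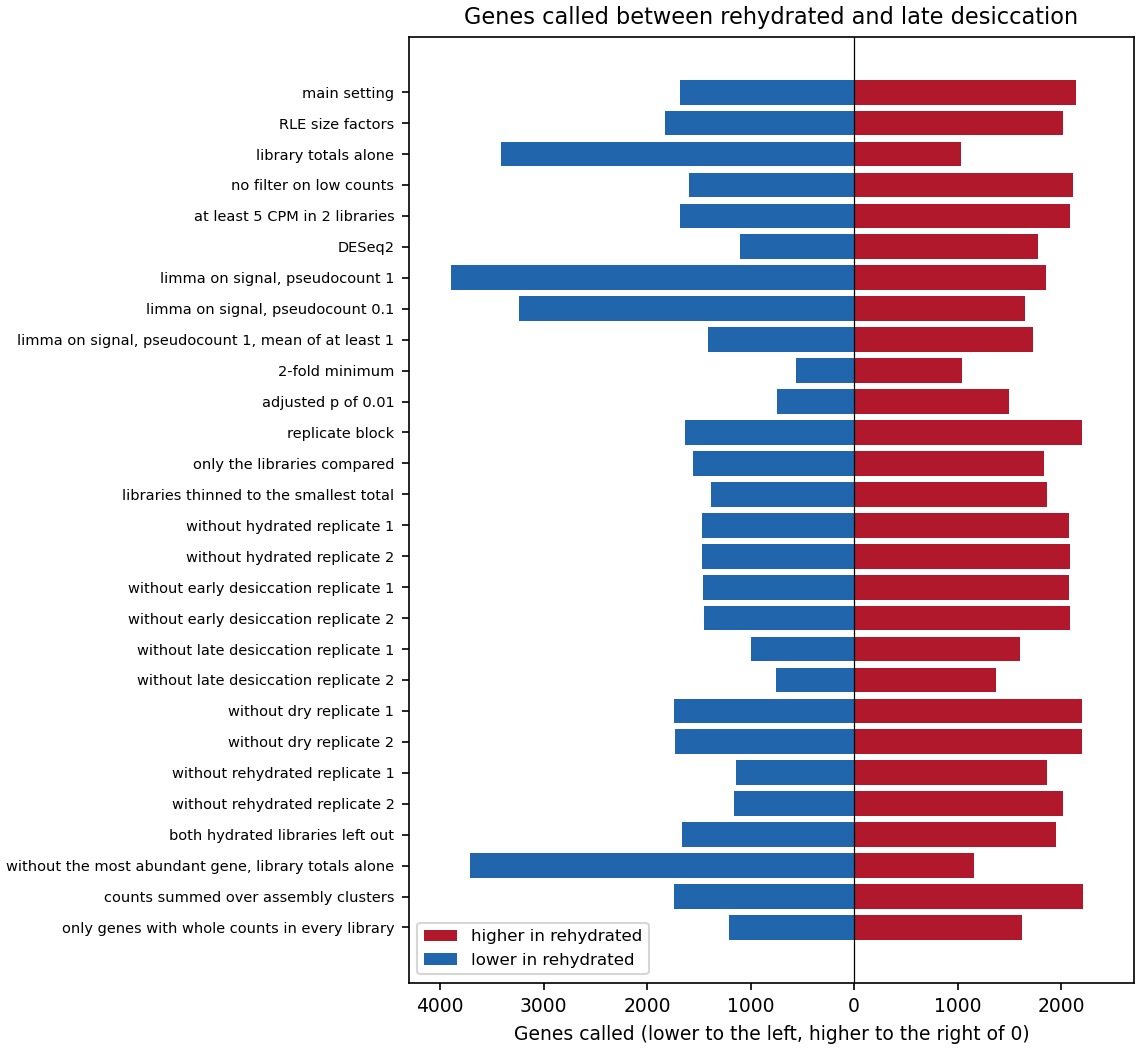
Genes called between rehydrated and late desiccation under each setting; bars to the right of 0 count genes higher in rehydrated and bars to the left genes lower in rehydrated. The main setting gives 2147 higher and 1678 lower genes, library totals alone give 1036 and 3411, and one setting counts assembly clusters instead of genes.

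Over all calls, genes higher after rehydration were more often among the abundant ones in hydrated and early drops. The lower genes were spread more evenly over levels, but not among calls kept without each of the 4 libraries. Levels were taken from the hydrated and early libraries, which lie outside the contrast. Their median was 18.0 CPM among the higher genes, 11.0 CPM among the lower genes, 8.16 CPM among uncalled genes and 9.98 CPM among all tested genes. With tested genes split into quartiles by that level, a split chosen after seeing the data, the most abundant quartile (median 48.9 CPM) held 892 higher and 436 lower genes, 34.1% and 16.7% of its genes. The least abundant quartile (median 2.78 CPM) held 327 higher and 338 lower genes, 12.5% and 12.9%. The quartiles between them held 362 and 566 higher genes, and 442 and 462 lower ones. Split instead by the mean over all 10 libraries, which the change itself enters, the most abundant quartile held 1209 higher and 282 lower genes, and the least abundant 118 and 477. Among the scarcest genes, lower genes thus outnumbered higher ones widely on that split and only slightly (338 against 327) on the other one. Among calls also made with each of the 4 libraries left out, both sets grew with the hydrated and early level. In the least abundant quartile by that level, such calls were more often higher than lower.

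**Figure D2:**
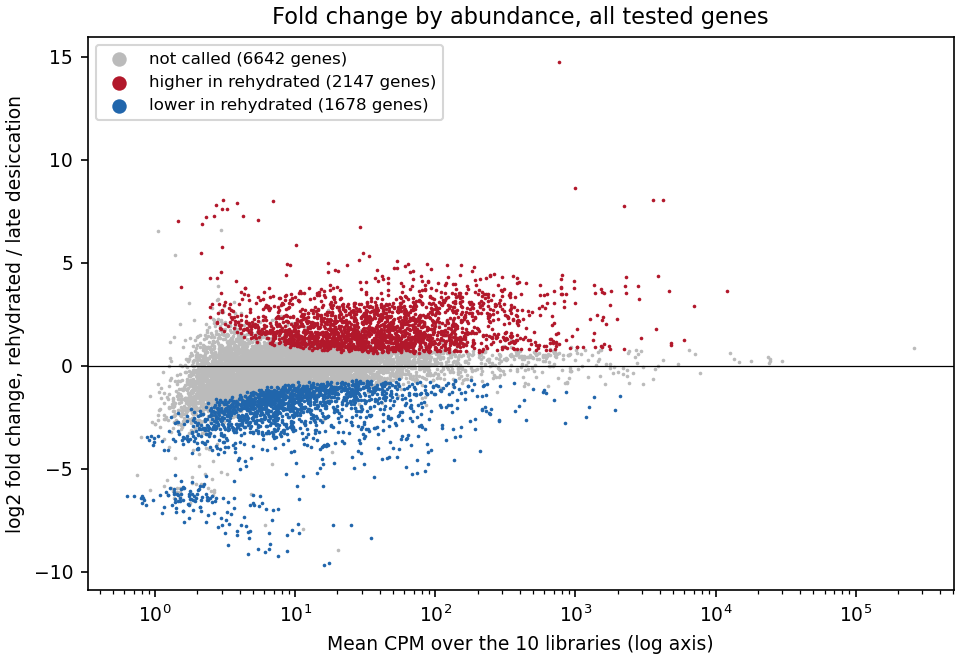
Log2 fold change of rehydrated over late desiccation (y) against the mean CPM over the 10 libraries (x, log axis), 1 point per tested gene. Higher genes (2147) lie mostly to the right and lower genes (1678) mostly to the left, on a mean that includes the compared libraries. The separate group of points below -5 on the y axis is mostly genes with 0 counts in both rehydrated libraries. Their fitted values depend on the default prior count of the fit.

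The called genes took up very different shares of the RNA in the rehydrated pair. The higher genes held 16.0% and 14.2% of the counts in late replicates 1 and 2, and 31.8% and 49.3% in rehydrated replicates 1 and 2. Both rehydrated values lie above both late ones, and the rehydrated libraries also stand far from each other. The lower genes held 9.14% and 10.8% in the late libraries, and 1.57% and 1.65% in the rehydrated ones. These sets were chosen on the same 4 libraries, so the shares describe them and test nothing. The other libraries lay outside the contrast, though they entered the filter, the scaling and the shared spread. A fit of only the 4 compared libraries kept 84.5% of the calls. In hydrated drops the higher genes held 13.7% ± 1.63 of the counts, beside 15.9% ± 2.47 in early and 35.9% ± 0.49 in dry drops (SD, n = 2 each). The lower genes held 6.57% ± 0.31, 7.42% ± 0.81 and 1.75% ± 0.20 (SD, n = 2 each). For both sets the hydrated and early libraries were close to the late ones and the dry libraries close to rehydrated.

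A pair of higher and a pair of lower genes were named by a fixed rule, in each direction the largest fitted change and the most abundant gene with a change of at least 4-fold. The most abundant rise was TRINITY_DN91459_c1_g1, which has no other gene in its assembly cluster and only whole counts. It stood at 2070 and 2429 CPM in the late libraries and at 24482 and 31435 CPM in the rehydrated ones. It rose 12.1-fold in counts summed per stage and divided by the TMM-scaled library sizes, with a 95% interval of 11.9 to 12.3 that covers counting error only (edgeR adjusted p = 2.58e-05 for a fitted log2 fold change of 3.64, SE 0.37). With library totals alone the fitted log2 fold change was 2.98 (SE 0.37). Its level at the other stages was 6935 ± 894 CPM in hydrated, 4923 ± 631 in early and 18601 ± 4733 in dry drops (SD, n = 2 each). The late libraries were thus the lowest of the 10 and the rehydrated ones the highest, with no overlap with any other stage. Between dry and rehydrated drops it did not pass the threshold (edgeR adjusted p = 0.29 for a log2 fold change of 0.59, SE 0.33). Late desiccation was below hydrated for this gene (edgeR adjusted p = 0.00417 for a log2 fold change of -1.62, SE 0.34).

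The most abundant fall was TRINITY_DN65303_c4_g2. It had 2770 and 3054 CPM at late desiccation, and 881 and 426 CPM after rehydration. Every late value lay above every rehydrated one, and the rehydrated libraries stood farther apart, in proportion, than the late ones. The fitted log2 fold change was -2.16 (SE 0.39, edgeR adjusted p = 0.00113), from -2.75 to -1.71 with 1 of the 4 libraries left out. Hydrated drops stood at 3391 ± 912 CPM, early ones at 1493 ± 428 CPM and dry ones at 1121 ± 194 CPM (SD, n = 2 each). Early desiccation thus lay below late desiccation and near dry, with no call between dry and early (edgeR adjusted p = 0.391). The other gene of its assembly cluster had 2464 and 4280 counts in the late and 563 and 84 counts in the rehydrated libraries. The sum of both genes also fell (edgeR adjusted p = 0.000428 for a log2 fold change of -2.01, SE 0.40).

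The largest fitted fall was in TRINITY_DN74594_c6_g2, a scarce gene. It had 73 and 253 counts in the late libraries and 0 in both rehydrated libraries. Taking a floor of 3 counts over the stage, it was 31.9-fold lower after rehydration (edgeR adjusted p = 0.000134), and 19.2-fold lower without late desiccation replicate 2. Counting error alone allows a rehydrated level of up to 0.039 of the late one (95% limit). The dry libraries also had 0 counts, while hydrated libraries had 24 and 34 and early libraries 10 and 12. The gene thus had reads in every library before dryness and in no dry or rehydrated one. Its cluster mate had 751 and 1902 counts in the late libraries, and 38 and 48 in the rehydrated ones. The sum of both fell from 219.8 ± 66.7 CPM to 23.9 ± 5.97 CPM (SD, n = 2 each; edgeR adjusted p = 1.9e-07 for a log2 fold change of -3.20, SE 0.33).

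The largest fitted rise did not hold for its assembly cluster. TRINITY_DN6519_c0_g1 had 0 counts in both late libraries, and 2362 and 1769 counts in the rehydrated ones (edgeR adjusted p = 1.39e-06). It had at least 1346 counts in each of the 6 libraries of the other stages, so the late libraries alone were empty. The other gene of its cluster had 7872 and 13224 counts in the late libraries, all of the cluster's counts there. In the rehydrated libraries that other gene had 1276 and 319 counts, and TRINITY_DN6519_c0_g1 took 64.9% and 84.7% of the cluster. Its share was 14.9% and 19.6% in hydrated, 43.8% and 37.8% in early, and 70.3% and 64.1% in dry libraries. The 2 genes together stood at 1649 and 1638 CPM at late desiccation and at 1889 and 1225 CPM after rehydration, values that overlap (edgeR adjusted p = 0.867 for a log2 fold change of -0.08, SE 0.33). The counts of this pair are not whole in 8 of 10 libraries, which estimated counts are when reads match more than 1 gene. Whether the reads of one gene were given to the other in the late libraries was not tested. Counts in the cluster of TRINITY_DN65303_c4_g2 are not whole in 10 libraries, and in that of TRINITY_DN74594_c6_g2 in 6.

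**Figure D3:**
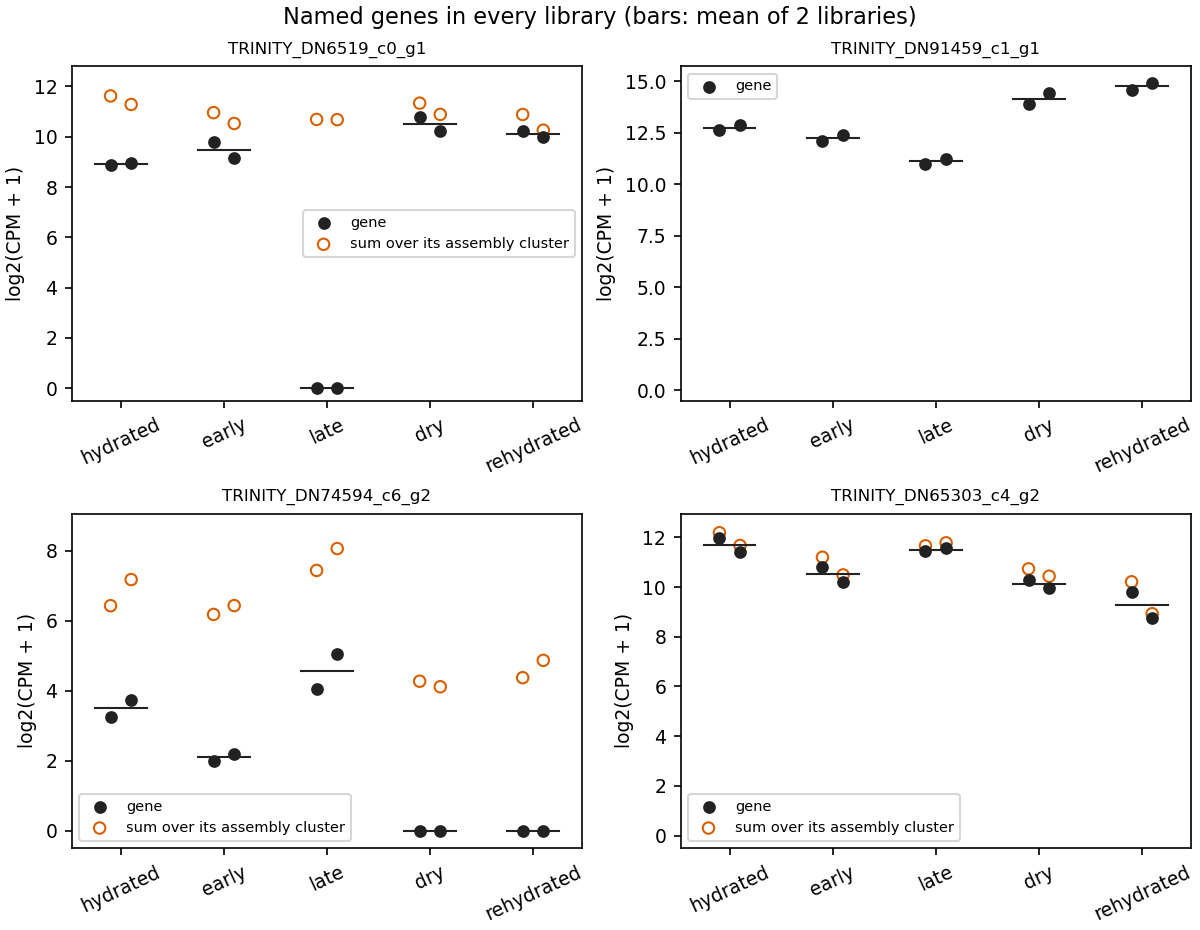
Levels of the 4 named genes in every library as log2(CPM + 1), with bars at the mean of the 2 libraries of a stage and open circles for the sum over the assembly cluster. The top left gene is at 0 at late desiccation only, while the sum of its cluster stays between 1225 and 3149 CPM in all libraries.

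How often cluster mates alter a call was then counted over all calls. Each sum includes the called gene's own counts, so a gene that dominates its cluster repeats its own call and the calls are not independent. Of the higher genes, 793 share an assembly cluster with another gene of the table. For 757 of them (95.5%) the summed cluster was also called higher. Of the lower genes, 463 do so, and the summed cluster was called lower for 367 (79.3%), not called for 86 and called higher for 10. Among lower genes of at least 8-fold with a mate, 96 of 144 (66.7%) kept the call in the sum, beside 148 of 155 (95.5%) among higher genes of that size. Of 823 clusters with exactly 2 tested genes, both were called in 184. They went the same way in 166 (90.2%), with 121 pairs higher and 45 lower, and opposite ways in 18. Over summed clusters, 2208 were higher and 1736 lower of 9358 tested, close to the split over genes. Genes whose counts were not whole in some library made up 38.7% of the higher, 26.3% of the lower and 28.3% of all tested genes. In a separate fit of only genes with whole counts in every library, 1618 were higher and 1213 lower of 7305 tested, of which 1311 and 1136 were also called in the fit of all genes.

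The hydrated, early and dry libraries were then used to place the called genes at stages outside the comparison. Dry against hydrated, dry against early and early against hydrated share no library with rehydrated against late desiccation, though all come from 1 model with 1 scaling. Of the 2147 higher genes, 1463 (68.1%) were also called higher in dry than in hydrated drops, beside 22.7% of all tested genes. These were 61.5% of the genes called higher in dry. In the opposite direction, 105 (4.89%) of the higher genes were lower in dry, beside 22.3% of all tested genes. Of the 1678 lower genes, 764 (45.5%) were called lower in dry than in hydrated drops, which is 32.8% of the genes lower in dry, and 55 (3.28%) were called higher. Among the calls made with each library left out, the dry call in the same direction was found in 1018 of 1234 higher genes (82.5%) and in 320 of 590 lower genes (54.2%).

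The shares were also taken on the other scaling, an alternative chosen after seeing the data. With library totals alone, dry against hydrated gave 1367 higher and 4176 lower genes (13.1% and 39.9% of those tested). On that scale 684 of the 1036 higher genes (66.0%) were higher in dry, and 2185 of the 3411 lower genes (64.1%) were lower in dry.

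Set against early desiccation instead, dry drops gave the same pattern. Both comparisons use the same dry libraries, so they are not independent of each other. The call was shared by 1565 higher genes (72.9% of them, 64.8% of the genes higher in dry than early) and 923 lower genes (55.0% and 40.8%), beside 23.1% and 21.6% of all tested genes. Over all 10467 tested genes, the log2 fold change of rehydrated over late desiccation correlated with that of dry over hydrated at a Pearson r of 0.57 and a Spearman rho of 0.60. It correlated with that of dry over early at 0.63 and 0.67. For dry over hydrated, Pearson's r was 0.63 in the most abundant and 0.41 in the least abundant quartile by the mean over all 10 libraries. These are correlations across genes, which are not independent replicates and share the scaling and the abundance of each gene. The early response went slightly the other way. Fold changes of early desiccation over hydrated correlated at -0.08, and 217 (10.1%) of the higher genes were called lower at early desiccation, beside 6.16% of all tested genes. Of the lower genes, 206 (12.3%) were called higher at early desiccation, beside 5.05% of all tested genes. The number of early calls changed with single libraries and with the scaling. Lower calls at early desiccation numbered 645, but 295 and 261 without hydrated replicate 1 or 2, 204 and 279 without early replicate 1 or 2, and 232 with library totals alone. Higher calls numbered 529, but 115, 156, 138 and 239 without those libraries in the same order. On library totals, 57 (5.50%) of the 1036 higher genes were lower at early desiccation, beside 2.22% of tested genes. More of them, 71 (6.85%), were higher at that stage, beside 7.58%. Of the 3411 lower genes, 400 (11.7%) were higher, beside 7.58%, and 63 (1.85%) were lower, beside 2.22%.

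**Figure D4:**
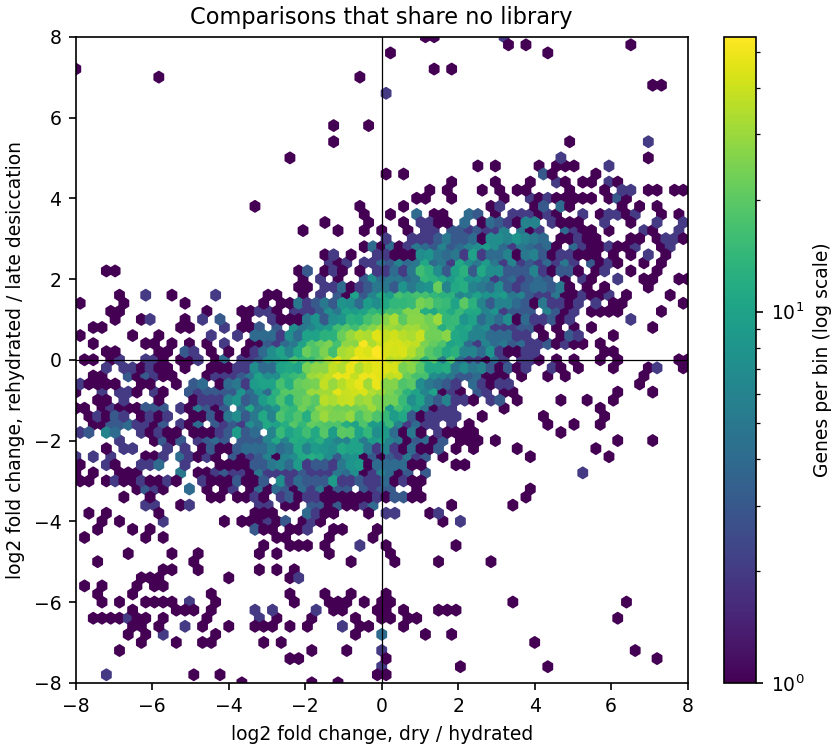
Log2 fold change of rehydrated over late desiccation (y) against that of dry over hydrated (x), comparisons with no library in common; colour gives the number of tested genes per bin on a log scale. The cloud runs from lower left to upper right (Pearson r = 0.57 over 10467 genes); 103 genes beyond 8 on either axis are not drawn.

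Library by library, the called sets lay on one side of their mean before dryness and on the other side after it. On log2 CPM centred on each gene's mean over the 10 libraries, the median of the higher genes was -0.61 and -0.58 in the hydrated, -0.70 and -0.73 in the early libraries, and at late desiccation -0.57 and -0.74. It was 1.15 and 0.93 in the dry, and 1.06 and 1.08 in the rehydrated libraries. The lower genes had medians of 0.42 and 0.42 in hydrated, 0.67 and 0.72 in early, and 0.71 and 0.79 in late libraries. They had -0.90 and -0.71 in dry, and -0.94 and -1.03 in rehydrated libraries. Over all tested genes these medians ran from -0.22 to 0.11. The late and rehydrated values describe the choice of the sets. The hydrated, early and dry libraries lay outside the contrast. Centring on a mean over all 10 libraries still ties their values to the late and rehydrated ones.

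**Figure D5:**
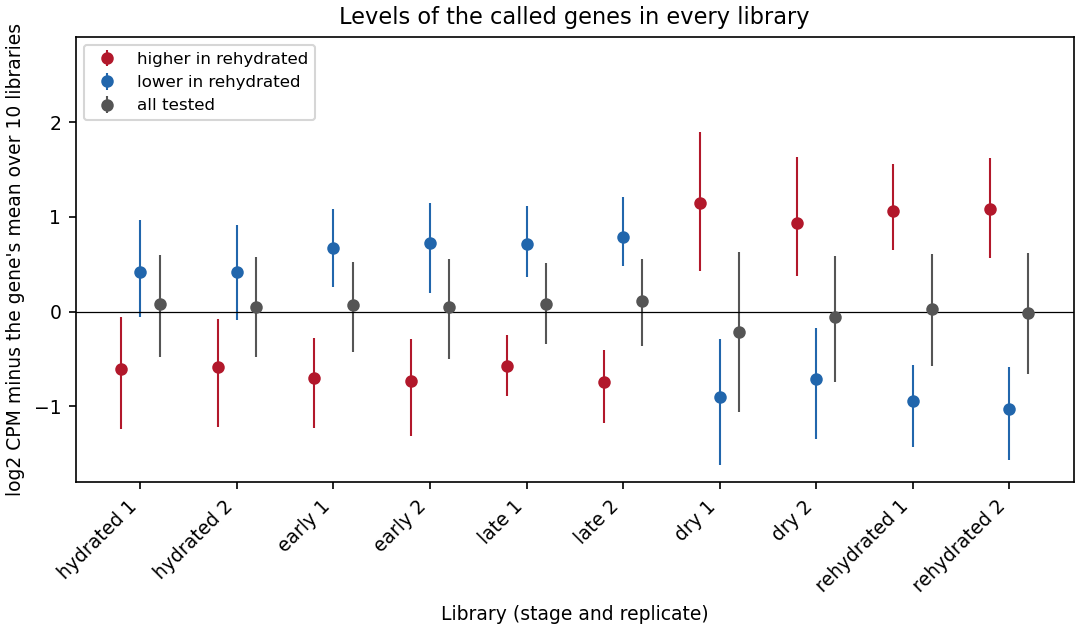
Median log2 CPM of the called sets in every library after subtracting each gene's mean over the 10 libraries; points are medians over genes and lines span the quartiles. Higher genes lie near -0.6 before dryness and near 1 in dry and rehydrated libraries, lower genes between 0.42 and 0.79 before dryness and between -1.03 and -0.71 after it, and all tested genes near 0.

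The dry libraries can also be set against both stages of the comparison. The dry mean lay nearer to the rehydrated than to the late mean in 1764 (82.2%) of the higher genes and 1365 (81.3%) of the lower ones, beside 69.8% of all tested genes. It lay between the late and rehydrated means in 42.2% of the higher and 56.9% of the lower genes (30.5% of all tested), and beyond the rehydrated mean in 51.1% and 39.3% (49.5% of all tested). The hydrated mean lay nearer to the rehydrated one in 22.0% of the higher and 28.1% of the lower genes, beside 34.0% of all tested genes. Comparisons that share libraries with rehydrated against late desiccation are given by their own values only. For the higher genes the median log2 fold change was 1.77 in dry against late (quartiles 1.02 to 2.70), -0.03 in rehydrated against dry (-0.57 to 0.58), -0.09 in late against hydrated (-0.77 to 0.65) and 1.71 in rehydrated against hydrated (0.86 to 2.77). For the lower genes it was -1.82 (-2.81 to -1.02), -0.21 (-0.91 to 0.42), 0.35 (-0.31 to 1.11) and -1.67 (-2.63 to -0.83) in the same order. Over all tested genes these medians were -0.29, 0.07, 0.04 and -0.09. All of these share the rehydrated or late libraries that chose the sets, and genes of both sets went both ways between dry and rehydrated.

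The dry call divides the higher genes into classes of unlike time course. The 1463 genes that were also higher in dry had a median of 17.0 CPM in hydrated, 16.9 in early, 20.2 in late, 92.5 in dry and 81.8 in rehydrated drops. This class was nearly level until late desiccation. The 579 genes with no call in dry had medians of 18.2, 13.6, 11.2, 21.0 and 30.9 CPM in the same order, lowest at late desiccation and highest after rehydration. The 105 genes that were lower in dry went from 53.3 CPM in hydrated to 25.5 in early, 17.5 in late, 21.6 in dry and 39.5 in rehydrated drops. Their lowest median was at late desiccation.

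The lower genes divided in a mirrored way. The 764 genes that were also lower in dry had medians of 14.7, 16.3, 12.8, 2.86 and 3.26 CPM in hydrated, early, late, dry and rehydrated drops, with the step between late desiccation and dry. The 859 genes with no call in dry had medians of 6.24, 8.06, 10.5, 4.32 and 2.77 CPM. They were highest at late desiccation and lowest after rehydration. The 55 genes that were higher in dry had 6.86, 16.9, 37.3, 23.9 and 12.3 CPM, with the highest median at late desiccation. Late, rehydrated, hydrated and dry levels in each class partly reflect how the class was chosen. The early libraries entered neither contrast, only the filter, the scaling and the shared spread.

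Presence and absence of reads was lopsided. Over the whole table of 17148 genes, 2615 had reads in both late libraries and 0 in both rehydrated ones, with a median of 12 counts summed over the late libraries. The reverse was seen for 20 genes. With at least 10 counts asked for in each library of the stage with reads, the numbers were 232 and 3. The late libraries are the deeper ones. With all libraries thinned to the smallest total, chosen after seeing the data, the numbers were 2504 and 54 for any reads, and 57 and 3 for at least 10 counts. A count of 0 in a rehydrated library allows up to 3 counts, a limit that covers counting error only. Of the 2615 genes, 2145 also had 0 counts in both dry libraries and 1304 in both hydrated libraries. Among the 14301 genes with reads at both late desiccation and rehydrated, which were less scarce, 2406 and 1163 did so. The dry libraries had reads for only 10742 and 11512 genes of the table, and the hydrated ones for 13481 and 13513. Most of the 2615 genes were too scarce to be tested, and 162 were tested. Of those 162 genes, 132 were called, beside 36.5% of all tested genes. How these genes were picked fixes the direction of such a call and favours the call itself, so their share tests nothing. Among the called genes, 132 lower genes had 0 counts in rehydrated and 14 higher genes had 0 counts at late desiccation. With these held at the bound that 3 counts per stage set, the medians were -1.93 and 1.71.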

How the data were processed

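Per the submitters' processing notes, which give no roles, RSEM 1.2.28, Bowtie2 2.2, Trimmomatic 0.35, CASAVA 1.4 and DESeq2 were used. How reads were assembled and genes chosen is not given in the sources used here. Per the labels' protocols, ribosomal RNA was depleted, also with 105 custom oligos. The authors deposited expected counts per assembled gene, not normalised, and a second table whose signal the authors had scaled by TMM, per its name (column sums 644523 to 1935895). Columns were matched to samples by replicate and time.

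Expected counts were rounded, and filterByExpr of edgeR 4.0.16 (R 4.3.3) removed scarce genes with its minimum count of 10 and minimum total of 15. After TMM scaling a quasi-likelihood model of 5 stages was fitted to all 10 libraries, two-sided, with Benjamini-Hochberg adjustment over 10467 genes. The standard error is the absolute log2 fold change divided by the square root of F. Log2 CPM used a prior count of 2. Fitted log2 fold changes used edgeR's default prior count for the fit instead. Data were simulated for rehydrated against late desiccation (9886 genes tested) with 200 genes changed, far fewer than were called in the real data. The test found 3 of 67 genes with a 2-fold change, 35 of 67 with a 4-fold one and 58 of 66 with an 8-fold one. It made 3 false calls. Named genes had an adjusted p below 0.05, also without each of the 4 libraries, at least 5 CPM in the higher stage and no overlap. Alternatives used limma 3.58.1 and DESeq2 1.42.0. Members, rules and tests were chosen with earlier results of these data known.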

Additional observations from a re-analysis of the deposited data

How the results depend on the processing

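The total of 3825 calls between rehydrated and late desiccation was 5745 with limma on the deposited signal (pseudocount 1, no filter on low values), 1600 against a 2-fold minimum and 2244 at an adjusted p of 0.01. The 2147 higher genes became 1036 with library totals alone, 1161 with totals that leave out the most abundant gene (chosen after seeing the data) and 1038 against a 2-fold minimum. The 1678 lower genes became 3411 and 3706 on those totals, 1101 with DESeq2, 3892 and 3239 with limma at pseudocounts of 1 and 0.1, 562 against a 2-fold minimum and 745 at an adjusted p of 0.01. The cause of these shifts was not tested, except that a stricter threshold calls fewer genes. With 1 of the 10 libraries left out, the total ran from 2122 to 3939, the higher genes from 1369 to 2202 and the lower genes from 753 to 1737, with all lowest values from leaving out late desiccation replicate 2. A stage left with 1 library is assumed to vary like the others.

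The replicate number as a block gave 3836 calls, 2201 higher and 1635 lower. The labels do not pair the libraries, and the differences between replicates 1 and 2 of late desiccation and of rehydrated correlated at 0.00042 across genes. Over all 10 pairs of stages this ran up to 0.141, for dry and rehydrated. Of 105 values of the named genes under alternatives, 104 kept direction and threshold, and TRINITY_DN6519_c0_g1 turned to a log2 fold change of -0.078 with counts summed over its cluster, an alternative chosen after seeing the data. Of 555 counts for the 7 other stage comparisons, 400 stayed within 1.5 times. In the simulation at this depth 4.48% of 2-fold changes were recovered. It changed only 200 genes, against 3825 calls in the data. Adjusted p depends on how many genes change, so this recovery does not carry over to the data. A missing call may still hide a change of that size.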

Other observations

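Gene length was estimated from the ratio of the deposited count and signal tables, relative to the median gene. This takes the signal to be divided by gene length, which its name does not state. An estimate was available for 10463 of 10467 tested genes. The quartile of shortest genes held 541 higher and 276 lower genes, the next quartiles 438 and 390, and 487 and 486, and the longest 681 and 526. The longest quartile thus held the most calls in both directions, and the shortest the fewest lower genes. The median relative length was 1.02 among higher, 1.08 among lower and 0.902 among uncalled genes.

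RNA was spread over more genes at early and late desiccation than after rehydration. It took 2397 and 2778 genes to hold 90% of the counts in the late libraries, and 1148 and 1749 in the rehydrated ones, beside 2071 and 2663 in early, 798 and 1010 in dry and 1507 and 1756 in hydrated libraries. The 10 genes next in rank after the most abundant one held 20.8% and 20.1% of counts in the late libraries, and 18.4% and 15.2% in the rehydrated ones.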
